A study of Mus musculus with 14 samples.

Results

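Apoe, Apoc1 and Apoc2 encode the apolipoproteins E, C1 and C2 and lie in one gene cluster, with Apoc4 between Apoc1 and Apoc2. They were 3 of the 43432 genes in the deposited RNA-seq table, and they were chosen by name after their values in all 14 libraries had been seen. Their levels and differences are therefore given as a description, without a test. The libraries were made from lung cells of male 129S1 mice aged 10 to 12 weeks, sorted as SiglecF-positive and CD11c-positive, the surface markers of alveolar macrophages, and split by a high or low level of MHC class II (MHCII), the complex that presents peptides to helper T cells. The mice had received bleomycin, a drug that injures the lung and leads to fibrosis, into the trachea at a labelled dose of 3 U/k. MHCII-high and MHCII-low cells were taken 2 weeks and 4 weeks after bleomycin (3 libraries in each of these 4 groups). MHCII-low cells of water-treated control mice gave 2 libraries, labelled replicates 1 and 3. MHCII-high cells of control mice were not analysed here. The labels do not say whether the libraries of a group came from separate mice or from pooled ones, so p-values measure only the spread between these libraries, which may be technical. Values are normalized counts: read counts scaled by the authors to make libraries comparable.

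Apolipoprotein E is the protein on remnant lipoproteins by which cells take these particles up through surface receptors, and macrophages secrete it while they export cholesterol. Apolipoprotein C1 travels on the same particles and slows their uptake. Apolipoprotein C2 is the activator that lipoprotein lipase needs to break down triglycerides. In macrophages the transcription of the cluster is known to be raised by the liver X receptors (LXR), nuclear receptors that sense oxidised cholesterol. In the lung, alveolar macrophages clear lipid-rich surfactant, and Apoe is also widely used as a marker of macrophages that arise from monocytes.

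The 250 bases before the start of Apoe and of Apoc2 are shown because both genes lie in the same cluster and were read at very different levels. They are RefSeq sequences of GRCm38.p6, minus strand, 5′ to 3′, and capitals mark the matches to the motifs searched. RefSeq's table held promoters for 2 of the 3 members, and for Apoe it held 3 windows at different starts, of which the one at the start of the deposited gene span is shown.
Apoe promoter, chr7:19699189-19699438: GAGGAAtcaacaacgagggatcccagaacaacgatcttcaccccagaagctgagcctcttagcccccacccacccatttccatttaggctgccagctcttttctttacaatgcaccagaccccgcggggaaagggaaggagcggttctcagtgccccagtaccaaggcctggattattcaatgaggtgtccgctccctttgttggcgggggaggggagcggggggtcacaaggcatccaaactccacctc
Apoc2 promoter, chr7:19677942-19678191: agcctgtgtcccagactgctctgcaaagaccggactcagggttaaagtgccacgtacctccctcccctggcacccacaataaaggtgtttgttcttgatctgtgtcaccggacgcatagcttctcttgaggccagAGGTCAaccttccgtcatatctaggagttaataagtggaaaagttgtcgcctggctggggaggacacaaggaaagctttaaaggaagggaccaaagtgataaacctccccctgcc
The motifs were searched on both strands from 250 bases before to 50 bases after the start. The PU.1 core GAGGAA, the site of a factor that macrophages need, was found in the Apoe window with its first base 250 bases before the start, and again on the other strand from 1 base after it. It is held by 28.28% of the 32851 promoters of the same length in the table. The nuclear receptor motif AGGTCA was found in the Apoc2 window 115 bases before the start and 42 bases after it, and in 16.26% of all promoters. This Apoe window held no TATAAA (13.62% of all promoters), CCAAT (37.41%), GGGCGG (35.66%), TGANTCA (7.81%), TGCTGA (19.48%) or AGGTCA, and the Apoc2 window held none of these apart from AGGTCA. A direct repeat of AGGTCA with 4 bases between, which contains that motif, was in neither window and in 0.02% of all promoters. Of the other Apoe windows, the one with the next start downstream held TATAAA 96 bases before that start, and the next held GAGGAA 132 bases before its own. These matches describe letters in a window and nothing more.

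The data did not bear out a set of 3 expressed genes: Apoe was read in all 14 libraries, and Apoc1 and Apoc2 were at or near the limit of counting. Over all libraries Apoe gave 32955 reads, Apoc1 gave 73 and Apoc2 gave 5. Per kilobase of exon this was 16600 reads for Apoe, 136 for Apoc1 and 5.36 for Apoc2. Apoe passed the filter for testing (10 or more normalized counts in 2 or more libraries), as 17390 genes did, and Apoc1 and Apoc2 did not pass it. Recovered depth was 15106415 to 88059630 reads per library, of which mitochondrial ribosomal RNA took 3.12% to 28.99%, so 3 reads, taken as the limit of detection, were worth 1.17 to 6.71 normalized counts. Intervals and limits of this kind cover counting error only, since the amplified libraries carried no described molecular identifiers.

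**Figure D1:**
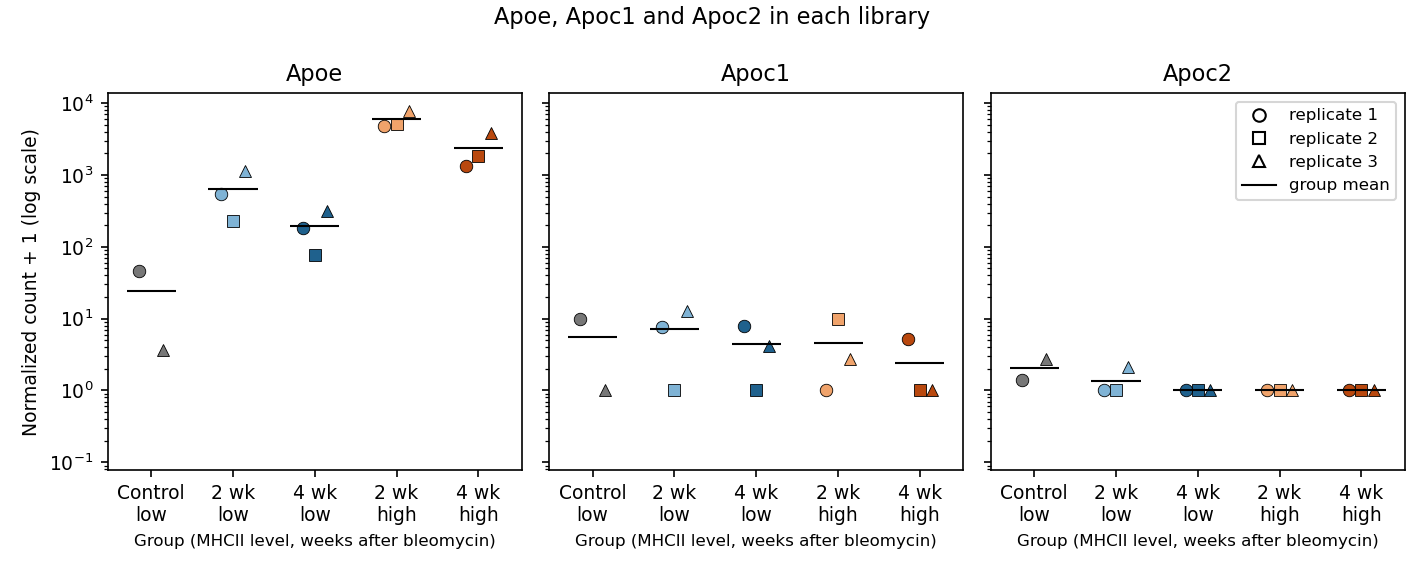
Normalized counts plus 1 (log axis) of Apoe, Apoc1 and Apoc2 in each library, by group. Symbols give the labelled replicate and lines the group mean. Apoe ranged from 2.6 in a control library to 7878 in a 2-week MHCII-high library, while Apoc1 stayed at or below 11.6 and Apoc2 at or below 1.7.

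Apoe (ENSMUSG00000002985) occupies bases 19696109 to 19699188 of chromosome 7 on the minus strand (GRCm38). It was highest in MHCII-high cells 2 weeks after bleomycin and nearly absent from control MHCII-low cells. In the 2-week MHCII-high libraries its normalized counts were 4823.2, 5185.4 and 7878.2 (mean 5962 ± 1669 SD, n = 3). In the 2-week MHCII-low libraries they were 539.2, 229.3 and 1139.8 (mean 636 ± 463 SD, n = 3). Every high library lay above every low library, and the low libraries were more spread out: the highest was 4.97 times the lowest, against 1.63 times in the high group.

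At 4 weeks the same order held at lower levels. The 4-week MHCII-high libraries had 1352.8, 1834.1 and 3899.7 normalized counts of Apoe (mean 2362 ± 1353 SD, n = 3). The 4-week MHCII-low libraries had 181.8, 76.5 and 317.7 (mean 192 ± 121 SD, n = 3). The groups did not overlap, and in the high cells all 3 libraries lay below all 3 of the 2-week libraries. The low cells of the 2 times did overlap, since the highest 4-week library (317.7) lay above the lowest 2-week library (229.3).

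The control MHCII-low libraries held 44.4 normalized counts of Apoe, from 114 reads, and 2.6, from 3 reads. Both were below every bleomycin library, and they differed 17.1-fold from each other. The second of them sits at the limit of detection, so the fold against controls rests mainly on which control library is used. With both, the mean was 23.5 ± 29.6 (SD, n = 2), or 0.394% of the 2-week MHCII-high mean.

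The order of the group means was therefore 2-week high, 4-week high, 2-week low, 4-week low and control low, and the only neighbours in it whose libraries overlapped were the 2-week and 4-week low cells. On the log2(value + 1) scale, where low values understate a change, Apoe was higher in high than in low cells by 3.48 ± 0.68 (SE) at 2 weeks and by 3.69 ± 0.68 at 4 weeks. Of the 17390 genes tested, 310 and 221 had a larger difference in the same direction. Low cells were above control by 5.35 ± 0.76 at 2 weeks and by 3.69 ± 0.76 at 4 weeks, with 10 and 7 genes further up. The difference of 4 minus 2 weeks was -1.66 ± 0.68 in low cells and -1.45 ± 0.68 in high cells, where 558 and 2111 genes had a larger decrease. These standard errors come from a spread shared by the 5 groups, with a residual SD of 1.202 for Apoe.

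Non-overlap of this kind was common in these libraries. Of all genes tested, 12.9% were higher in every 2-week high than in every 2-week low library, 8.26% were so at 4 weeks, and 9.06% were lower in every 4-week than in every 2-week high library. For the low cells against control, 13.7% at 2 weeks and 11.4% at 4 weeks were higher in every bleomycin library. Since Apoe was chosen on these same values, nothing is read from its being among them.

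The place of Apoe among all genes shifted with the group as well. By normalized counts per kilobase of exon, 256 to 424 genes stood above it in the 2-week high libraries and 563 to 1965 in the 4-week high libraries. In the low cells 2345 to 6824 genes stood above it at 2 weeks and 5859 to 9987 at 4 weeks. In the controls the numbers were 12075 and 17318, and of the genes read in those libraries 45.1% and 7.2% stood below Apoe.

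Within groups the libraries of Apoe differed as well. Replicate 3 was the highest in each of the 4 bleomycin groups, and replicate 2 the lowest in both low groups. In the 2-week low cells, replicate 3 also had the highest summed level of the 3 C1q genes (1050 normalized counts) and of the 5 MHCII genes (12500), and replicate 2 the lowest of both (186 and 4038). At 4 weeks, replicate 3 of the low cells again led in both sums, with 279 and 5944. Replicate 2 had the lowest MHCII sum there (3112), but replicate 1 had the lowest C1q sum (43.7). In the high cells replicate 3 led in both sums as well, with 18230 and 221600 at 2 weeks and 5377 and 180000 at 4 weeks. The part of MHCII-high cells carried over in the sort in these values was not tested, and in bulk libraries fewer cells of a type and less RNA per cell cannot be told apart.

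**Figure D2:**
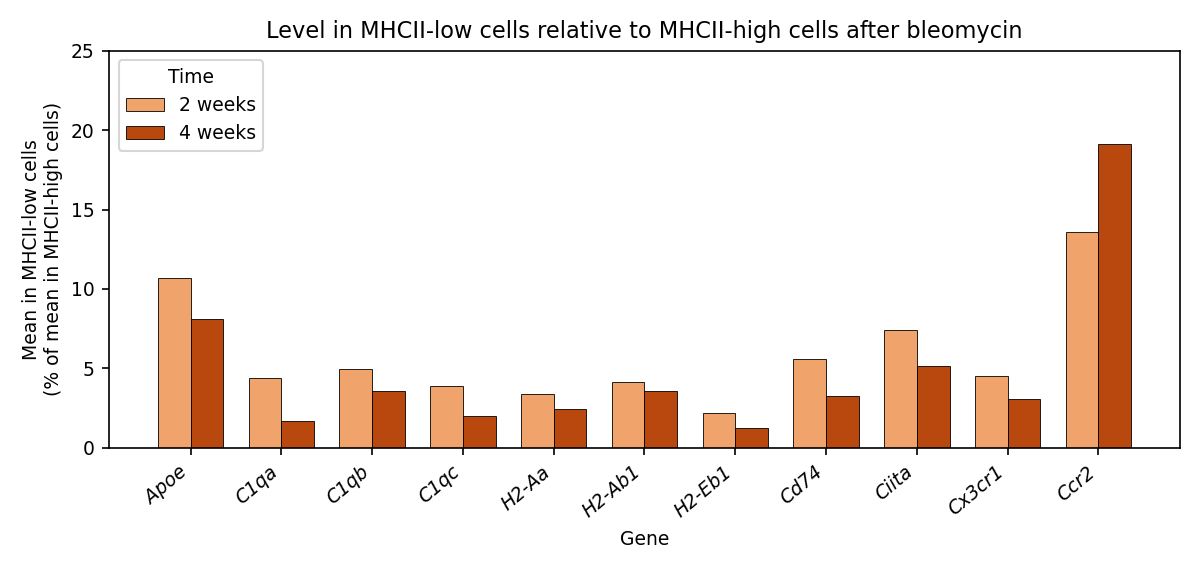
Group mean in MHCII-low cells as a percentage of the group mean in MHCII-high cells at the same time after bleomycin, for Apoe, genes used as markers of monocyte-derived macrophages, C1q and MHCII. Bars start at 0 and carry no error. Apoe stood at 10.7% and 8.13%, above the 3 C1q and 5 MHCII genes, and Ccr2 at 13.6% and 19.1%.

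The level of Apoe left in low cells can be set beside that of genes by which the high cells stand out. The mean in low cells was 10.7% of that in high cells for Apoe at 2 weeks and 8.13% at 4 weeks. For H2-Aa, an MHCII chain whose protein the sort itself selects, the values were 3.37% and 2.42%. For C1qa, C1qb and C1qc, the chains of the complement recognition protein made by tissue macrophages, they were 3.88% to 4.96% at 2 weeks and 1.67% to 3.59% at 4 weeks. Cx3cr1, the fractalkine receptor of monocytes and their progeny, stood at 4.5% and 3.09%, and Ccr2, the receptor that draws monocytes into tissue, at 13.6% and 19.1%. Other markers of monocyte-derived or interstitial macrophages separated less: Ms4a7 stood at 22.1% and 62.0%, Itgam at 22.3% and 10.3%, Csf1r at 81.6% and 75.6%, Fcgr1 at 76.1% and 101%, and Cd14 at 114% and 102%. Apoe thus remained at a larger percentage in low cells than the C1q and H2-Aa genes and Cx3cr1 at both times and at a smaller one than the other 6 of these markers, with no test of these ratios.

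From 2 to 4 weeks, the mean of Apoe in high cells went to 39.6% and in low cells to 30.2% of its earlier value. In high cells C1qa went to 30.5%, C1qb to 27.0%, C1qc to 50.1% and H2-Aa to 67.6%. In low cells C1qa went to 11.7%, C1qb to 19.5%, C1qc to 26.1% and H2-Aa to 48.6%. In both populations the percentage for Apoe was above those of C1qa and C1qb and below those of H2-Aa. C1qc was above Apoe in high cells and below it in low cells. Cx3cr1 went to 42.2% in high and 29.0% in low cells, near the percentages of Apoe. Trem2, which encodes a lipid-sensing receptor that binds apolipoprotein E, stood in low cells at 93.8% (2 weeks) and 69.3% (4 weeks) of its mean in high cells, and it did not pass the limma test at either time (adjusted p = 0.87 and 0.24).

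Apoc1 (ENSMUSG00000040564, chromosome 7, 19689481 to 19692660) had no pattern by group. Its normalized counts were 9.0 (23 reads) and 0 in the controls, 6.7 (3 reads), 0 and 11.6 (21 reads) in 2-week low cells, and 6.9 (8 reads), 0 and 3.2 (3 reads) in 4-week low cells. The high cells had 0, 9.0 (11 reads) and 1.7 (2 reads) at 2 weeks, and 4.2 (2 reads), 0 and 0 at 4 weeks. Every group held at least 1 library at 0, and the groups overlapped throughout. The library with the most Apoc1 (11.6) was a low library, and the 2-week high library 1, with 9374 reads of Apoe, had none of Apoc1, which at its depth allows up to 1.54 normalized counts. No fold is given, because a difference of Apoc1 between groups was not detectable at this depth.

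Apoc2 (ENSMUSG00000002992, chromosome 7, 19671579 to 19677941) was read 5 times in all. Its normalized counts were 0.4 (1 read) and 1.7 (2 reads) in the controls and 1.1 (2 reads) in replicate 3 of the 2-week low cells. The other 11 libraries, among them all 6 high libraries, held none, which allows up to 1.54 to 6.71 normalized counts depending on the library. In the GENCODE M21 annotation, 79.5% of its exon bases (646 of 813) are shared with Gm44805, a gene on the same strand that the deposited data do not list under that name. The annotation behind the deposited counts is not given, so whether the overlap affected the counts of Apoc2 is unknown. Apoe and Apoc1 share no exon base with another gene in GENCODE M21.

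**Figure D3:**
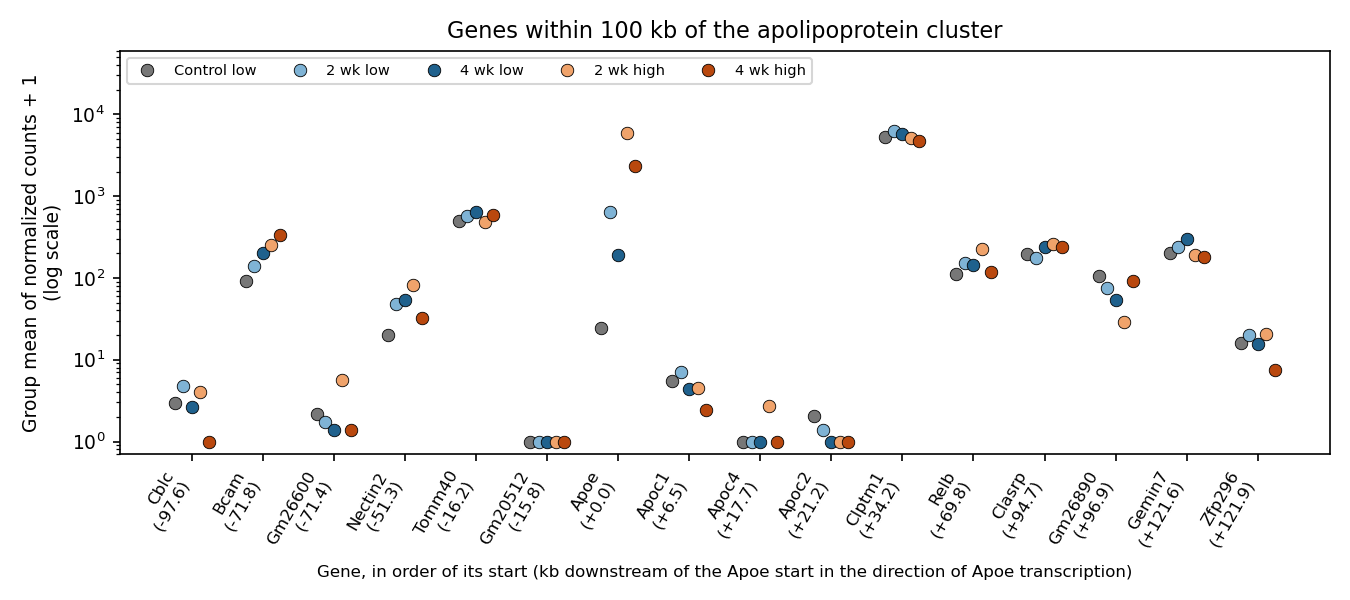
Group means of normalized counts plus 1 (log axis) for the 16 genes within 100 kb of the cluster, ordered by the distance of their start from that of Apoe. Apoe spans 23.5 to 5962 between groups, while Tomm40 lies between 482 and 634 and Clptm1 between 4693 and 6257.

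No gene around the cluster differed between groups by as much as Apoe between high and low cells or against control, though some shared its direction. Of the 13 other genes within 100 kb, 9 passed the filter: Tomm40, Clptm1, Nectin2, Bcam, Relb, Clasrp, Gemin7, Zfp296 and Gm26890. Tomm40, which encodes the pore of the mitochondrial outer membrane and starts at -16.2 kb relative to Apoe, had group means of 482 to 634 and differed by -0.23 (log2) between high and low cells at 2 weeks and by -0.24 at 4 weeks. Clptm1, which starts 34.2 kb downstream, had group means of 4693 to 6257 and differed by -0.28 and -0.29. Nectin2, an adhesion molecule gene with its start at -51.3 kb, was like Apoe lowest in control (mean 19.0) and highest in 2-week high cells (82.1). It differed by 1.09 between high and low cells at 2 weeks, by 0.8 and 1.35 between low cells and control at 2 and 4 weeks, and by -1.39 in high cells over time, but by -0.85 between high and low cells at 4 weeks. Bcam, which encodes a laminin-binding adhesion protein, differed in the direction of Apoe by 0.69 and 0.64 between high and low cells and by 0.56 and 1.2 from control, and in the opposite direction by 0.64 and 0.59 over time in low and high cells. Gm26890 had the largest difference between high and low cells at 2 weeks in size, -1.35, opposite to Apoe, and Zfp296 differed by -1.57 at 4 weeks. These values carry no test. Apoc4, the remaining apolipoprotein of the cluster, had 5.1 normalized counts in replicate 1 of the 2-week high cells and 0 in the other 13 libraries.

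The genes whose profile over the 14 libraries was most like that of Apoe were found by the root mean square difference between log2(value + 1) profiles, each centred on its own mean, among 9993 genes. The median gene was 3.038 away, near the SD of Apoe itself (3.014). Blnk, an adaptor of B-cell receptor signalling, was the nearest at 0.706, with group means of 8.75 in control, 98.7 and 44.8 in low and 1269 and 903 in high cells at 2 and 4 weeks. B4galt6, a galactosyltransferase of glycolipid synthesis, followed at 0.963, Cadm1, a cell adhesion molecule, at 1.033, C1qb at 1.092 and Cmklr1, the chemerin receptor, at 1.094. All 5 were highest in 2-week high cells and lowest in control, with 4-week low cells below 2-week low cells, which is the order of the means of Apoe. Libraries of a group share their sort and time, so this likeness mostly reflects the 5 group levels. Apoc1 and Apoc2 failed the filter and have no such measure.

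Some cell type markers were higher in high than in low cells, as Apoe was, and others were not. The libraries fitted their labels: Siglecf and Itgax, the genes of the sorted proteins, had group means of 3520 to 8304 and 29370 to 40450, with Siglecf lower in the high groups. The summed level of 8 markers of alveolar type 2 epithelium, all read in every group, was 5017 to 13130 in high libraries and 1692 to 4793 in low and control ones. Sftpb, 1 of them, had a lower mean in high than in low cells at 4 weeks (925 against 1333). Napsa (843 against 805) and Sftpd (65.3 against 56.8) were only slightly higher then. The sum of 6 dendritic cell markers was 866 to 1975 in high libraries and 76.7 to 250 in the others. That of 9 monocyte-derived or interstitial macrophage markers was 51040 to 56440 in high and 29640 to 35010 in low libraries at 2 weeks. At 4 weeks it was 30460 to 38010 against 18860 to 23610. Csf1r had the highest mean of these 9 in each group. By group means Cd14 was lower in high cells at both times (3628 against 4152 and 2558 against 2617). At 4 weeks Fcgr1 (1042 against 1051) and Ly6c2 (0.933 against 5.13) were also lower. Lymphocyte markers (7 genes) summed to 292 to 986 against 30.9 to 295, with Cd79b at 0 in 4-week low cells and Trbc2 at 0 in 4-week high cells. Apart from C1q and MHCII, the remaining lists did not have a higher sum in every high than in every low library at both times. The 10 resident alveolar macrophage markers summed to 324600 to 394600 in high and 506200 to 562500 in low libraries at 2 weeks, and to 354500 to 409500 against 411500 to 505400 at 4 weeks. The 6 airway or type 1 epithelium markers summed to 3808 to 7557 in high and 19820 to 25520 in low libraries at 4 weeks, mostly Scgb1a1 (means 4882 and 21670). By group means Scgb3a2, Foxj1 and Aqp5 were also lower in high cells then, and Hopx and Ager were higher. At 2 weeks the sums overlapped (660 to 5951 in high and 2468 to 8359 in low libraries), and only Scgb1a1 had a lower mean in high cells. Neutrophil and fibroblast sums overlapped between high and low cells at both times and endothelial sums at 2 weeks, while at 4 weeks the endothelial sum was 3292 to 4203 in high and 1710 to 2805 in low libraries. The neutrophil sums were mostly Csf3r and Cxcr2. Of the other neutrophil markers, S100a8 was 328 to 396 in high and 131 to 322 in low libraries at 2 weeks, and S100a9 and Retnlg overlapped. At 4 weeks S100a8, S100a9 and Retnlg all overlapped. The part of these cell types in the level of Apoe was not tested. Of 6 hepatocyte or plasma protein markers, Serpina1a and Apoa1 were at 0 in all groups.

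Genes that act with Apoe were taken from 5 lists of 50 genes, of which 42 were tested with limma: other apolipoproteins, receptors and binding partners, lipases and lipid transfer proteins, LXR and its targets, and reported regulators of Apoe. Between high and low cells at 2 weeks, 3 of the 42 were higher, where 2.87% of all genes passed the test. Some alternatives also called lower ones: 3 higher and 3 lower with TMM factors, 3 and 2 in edgeR, 3 and 4 in DESeq2, and 2 and 7 with the trend on GC content removed. The median log2 difference was -0.23 for the lists and 0.08 for all genes. At 4 weeks, 1 was higher and 2 were lower, beside 2.50% of all genes, with medians of -0.31 and -0.03. At an unadjusted p under 0.05 in limma, in either direction, there were 16 of the 42 at 2 weeks and 15 at 4 weeks. Of all genes, 15.4% and 15% were under it. Since the list medians lay below 0, a large part of the lists did not share the direction of Apoe.

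The 6 reported regulators on the list are transcription factors, among them Spi1 (PU.1), which macrophages need to form, and Cebpa, Cebpb and Pparg. Of these 6 genes, 0 passed the limma test in any comparison, with 0 to 4 at an unadjusted p under 0.05 (6.12% to 15.4% of all genes), up to 1 called by edgeR and up to 2 by DESeq2 in a comparison. The 4 were Cebpa, Spi1, Pparg and Usf1, all lower in high than in low cells at 2 weeks. Spi1, the most abundant, had group means of 8401 to 12220 and differed by -0.52 ± 0.18 (log2, limma adjusted p = 0.15) between high and low cells at 2 weeks and by -0.31 ± 0.18 (adjusted p = 0.45) at 4 weeks.

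Among the 11 receptors and binding partners, Sorl1, a sorting receptor that binds apolipoprotein E, was higher in high cells. Its group means were 2260 ± 883 (high) and 370 ± 97.0 (low) at 2 weeks, and 1929 ± 116 and 470 ± 141 at 4 weeks (SD, n = 3). The differences were 2.56 ± 0.29 (log2, limma adjusted p = 1.3e-05) and 2.08 ± 0.29 (adjusted p = 0.00013). Lrp1, an endocytic receptor and the list's most abundant member, did not pass the test, with group means of 79000 to 109000.

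Of the 10 genes of the LXR list, 2 were higher in 2-week high cells. Arl4c, a small GTPase gene that LXR activates, had means of 2621 ± 131 against 769 ± 61.8 (log2 difference 1.77 ± 0.25, limma adjusted p = 0.00017). Abca1, the cholesterol exporter that loads apolipoprotein A1 and E with lipid, had 5140.6, 5295.2 and 6135.4 against 3456.8, 3469.8 and 2781.7 (0.77 ± 0.17, adjusted p = 0.014). The call for Abca1 was lost with the trend on GC content removed (adjusted p = 0.058), and without replicate 2 (0.053) or replicate 3 (0.063) of the high or replicate 3 of the low cells (0.066). At 4 weeks 0 of the 10 genes passed in limma, with 5 at an unadjusted p under 0.05 (15.0% of all genes), 1 called by edgeR and 2 by DESeq2, and Abca1 differed by -0.48.

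Of the 11 lipases and lipid transfer genes, 0 passed at 2 weeks in limma, with 2 at an unadjusted p under 0.05 (15.4% of all genes), 1 called by edgeR and 2 by DESeq2. Lpl, the lipase that apolipoprotein C2 activates and the most abundant of them, was read at 73320 ± 6581 in high and 105600 ± 18960 in low cells, in libraries that held nearly no Apoc2. At 4 weeks Pltp, the phospholipid transfer protein, was lower in high cells (log2 difference -0.89 ± 0.23, limma adjusted p = 0.044), as was Pnpla2, the triglyceride lipase of lipid droplets (-0.69 ± 0.18, adjusted p = 0.045). Both calls were lost with no filter on low values, with the share of mitochondrial ribosomal RNA as a covariate, with the GC trend removed, and without high replicate 2 or 3 or low replicate 1 or 3, and the adjusted p reached 0.23 for Pltp and 0.24 for Pnpla2. Pnpla2 also lost it without high replicate 1, with library totals without mitochondrial ribosomal RNA as the scale (0.051) and with the replicate number as a block (0.057).

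**Figure D4:**
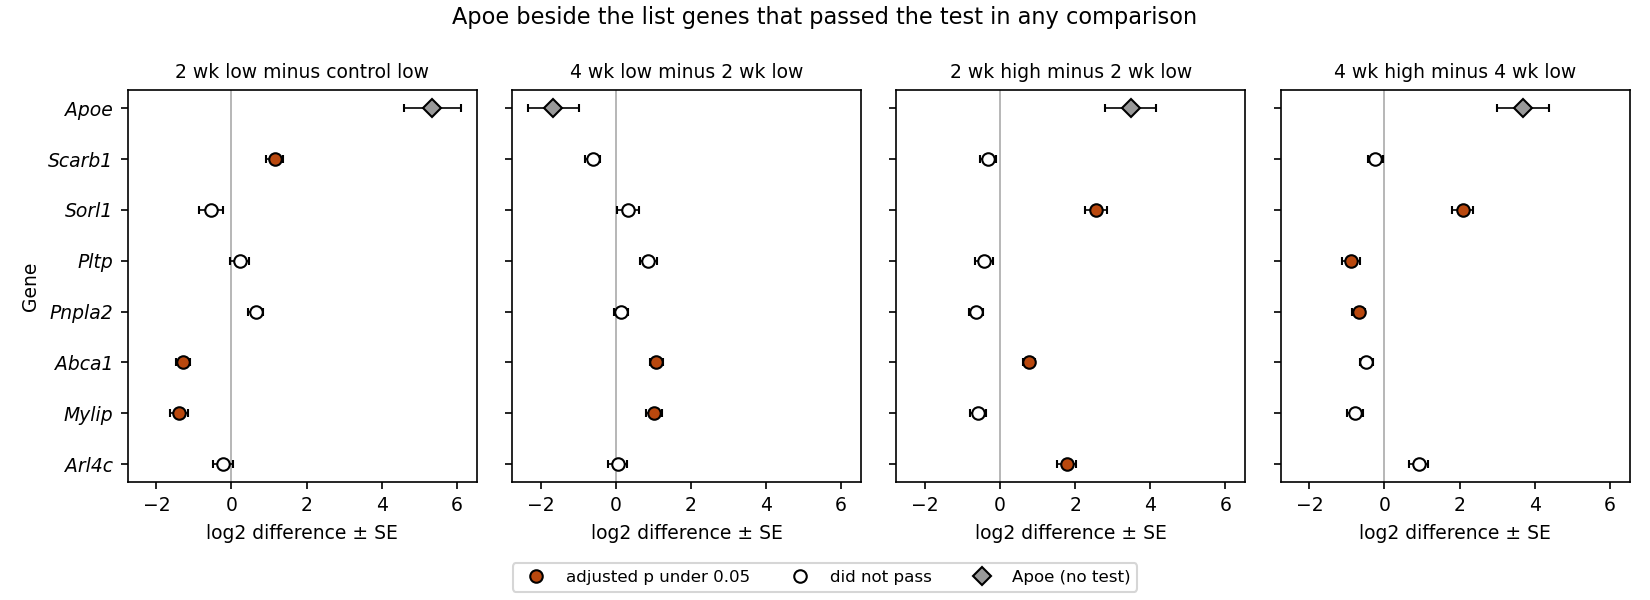
Log2 differences with standard errors in 4 comparisons for Apoe and for the list genes that passed the test in any of them. Filled circles passed at an adjusted p under 0.05, open circles did not, and Apoe (diamond) carries no test. In 2-week low cells against control, Apoe and Scarb1 lie to the right and Abca1 and Mylip to the left.

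In MHCII-low cells 2 weeks after bleomycin against control, 1 list gene rose and 2 fell, where 1.91% of all genes passed. The lists' median was 0.22 beside -0.09 for all genes. Scarb1, the scavenger receptor for high-density lipoprotein, rose from a mean of 2359 ± 858 (SD, n = 2) to 5140 ± 1068 (SD, n = 3) normalized counts (log2 difference 1.15 ± 0.23, limma adjusted p = 0.0075).

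The genes that fell there are both LXR targets, while Apoe, which LXR is also known to activate, was higher. No other gene of the LXR list passed there in limma, and the others differed by -0.43 (Abcg1) to 1.33 (Nr1h3, an LXR gene). The median of the LXR list was 0.04. The part of LXR in the level of Apoe was not tested. Abca1 went from 6444.5 and 9711.8 in control to 3456.8, 3469.8 and 2781.7 in 2-week low cells (-1.30 ± 0.19, limma adjusted p = 0.00033). Mylip, which encodes a ubiquitin ligase that limits lipoprotein uptake, went from 3578.3 and 3956.7 to 1624.4, 1297.8 and 1362.2 (-1.40 ± 0.24, adjusted p = 0.0016). The groups did not overlap for either gene. Nothing is read from this, since the share of all genes lower in every 2-week low library is not given here. In the other direction, 13.7% of all genes were higher in every 2-week low than in every control library. Without control replicate 3 the adjusted p was 0.054 for Mylip and 0.37 for Scarb1, and with library totals without mitochondrial ribosomal RNA as the scale it was 0.055 for Scarb1.

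At 4 weeks 0 list genes differed between low and control cells in limma, where 0.0460% of all genes passed. At an unadjusted p under 0.05 there were 9 of the 42, beside 6.12% of all genes, edgeR called 0 and DESeq2 called 2. From 2 to 4 weeks in low cells, 2 list genes rose, beside 0.857% of all genes. Abca1 rose by 1.08 ± 0.17 (log2, limma adjusted p = 0.0013) to 7326.1, 6486.4 and 6653.9, and Mylip by 1.02 ± 0.21 (adjusted p = 0.018) to 3471.4, 2731.4 and 2511.9. The call for Mylip was lost with no filter on low values (0.057) and without replicate 2 or 3 of the 2-week or replicate 1 or 2 of the 4-week cells (0.061 to 0.13). The comparisons of low cells share the 2-week and control libraries.

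Between 4 and 2 weeks in high cells, 0 of the 42 list genes passed in limma, where 1.07% of all genes did. At an unadjusted p under 0.05 there were 10, beside 14% of all genes, edgeR called 0 and DESeq2 called 3. Mylip had the smallest p, with a difference of 0.83 ± 0.21 (limma adjusted p = 0.061).

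The other apolipoprotein genes were read at low levels. Of 12 genes, 4 were tested (Apoa2, Apob, Apom and Clu), and 0 passed in any comparison in limma, edgeR or DESeq2, with 0 to 2 at an unadjusted p under 0.05 in a comparison (6.12% to 15.4% of all genes). Clu, which encodes clusterin, had the highest mean and was uneven: 69.6 to 420 normalized counts in 2-week high libraries and 0 to 40.3 in 2-week low ones. Apoa1, Apoa4, Apoc3 and Apoh were listed at 0 in all libraries. No other gene of the list exceeded 420 normalized counts in any library, whereas Apoe had 1352.8 or more in every MHCII-high library.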

How the data were processed

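RNA-seq libraries of sorted mouse lung cells were analysed from 1 deposited table of 43432 genes and 14 libraries. Per the labels' protocols, mRNA was bead-purified, amplified as cDNA and made into libraries by transposase tagging, and 2 sorter models were used without saying for which samples. The submitters' processing notes name STAR, DESeq2 and mm10, with no role or version. The headers name the columns as normalized: per the file headers they are a signal that the authors derived from gene counts, by a factor not given in the sources used here. The deposited table also gives GC content in percent, used as given.

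Each column held multiples of 1 step (0.38954 to 2.23742 normalized counts), within rounding (0.05) for 99.76% to 99.99% of values, so reads were recovered by division. Depth was 15106415 to 88059630 reads per library, and 3 reads were taken as the floor.

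The main test was limma 3.58.1 (R 4.3.3) (limma-trend) on log2(value + 1), 1 coefficient per group, all 14 libraries and 6 comparisons, for genes at 10 or more normalized counts in 2 or more libraries, with Benjamini-Hochberg adjustment over 17390 genes and a threshold of 0.05. The script was tested on simulated data. Adjusted p-values are limma's where no tool is given. edgeR 4.0.16 and DESeq2 1.42.0 were run on the recovered reads as alternatives. A few genes that would meet the naming rule are not reported here and were left out of the lists. The members and lists were chosen with earlier results of these data known. Up to 3 list genes past the threshold were named per list and comparison, the most abundant member of a list where none passed, the neighbours within 100 kb that passed the filter, and the 5 genes most like Apoe. Other genes named were chosen after their values were seen. Sequences are from RefSeq (GRCm38.p6).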

Additional observations from a re-analysis of the deposited data

Results flagged for a closer look

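2 genes that act with Apoe differed between 2 and 4 weeks in MHCII-low cells when that difference itself was tested with limma. Abca1 differed by 1.08 (log2, 4 minus 2 weeks, adjusted p = 0.0013) and Mylip by 1.02 (adjusted p = 0.018), both with all 3 libraries of 4 weeks above all 3 of 2 weeks. The share of all genes with such a separation is not given here, so nothing is read from it. Both are LXR targets that were lower than control at 2 weeks, whereas Apoe differed by -1.66, and no cause was tested.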

How the results depend on the processing

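Apoe kept the sign of each difference under all alternatives run: pseudocounts of 0.5 and 5, no filter or one of 50, library totals without mitochondrial ribosomal RNA (totals, below), TMM factors, edgeR, DESeq2, the mitochondrial ribosomal RNA share as a covariate, removal of a GC trend, the replicate block, and each library left out. Without single libraries its difference from control ranged from 3.52 to 7.18 at 2 weeks and from 1.86 to 5.52 at 4 weeks: the upper values are without control replicate 1 and the lower ones without replicate 3. With 1 control library left, that library is assumed to vary like the other groups. List genes were rerun only in the comparisons where they had passed: none of these changed sign, 29 values lost the call and 155 did not. Scaling by these totals moved the median of all genes by -0.197 (2-week low against control) and 0.133 (low cells, 4 minus 2 weeks), and the GC correction by -0.166 (high minus low at 2 weeks), 0.193 and 0.129 (low minus control) and 0.126 (high cells over time).

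Counts over all genes moved more, for causes not tested apart from fewer samples or more genes tested. High minus low at 2 weeks gave 499 genes, and 316 with no filter, 1055 in DESeq2, 207 with the mitochondrial covariate (90.8% of them higher, against 79.8%), 773 with the GC correction (47.6% higher), and 205 to 457 without single libraries, with 68.8% higher in edgeR. At 4 weeks it gave 434, and 282 with no filter, 898 in DESeq2 and 266 to 483 without single libraries, with 89.0% higher under the covariate, against 78.6%. For 2-week low cells against control, 332 became 660 in DESeq2, 213 with the covariate, 576 with the GC correction (89.6% higher, against 77.7%) and 127 to 307 without single libraries. There 53.7% were higher with totals (159 higher and 137 lower) and 58.1% with no filter (198 and 143), against 258 and 74. At 4 weeks 8 became 65 with no filter (7 higher and 58 lower), 2 in edgeR, 77 in DESeq2, 2 with the covariate, 5 with the GC correction and 1 to 8 without single libraries. From 2 to 4 weeks, 149 in low cells became 322 in DESeq2 (24.5% higher, against 12.8%, and 25.2% with totals) and 95 to 138 without single libraries. In high cells, 186 became 103 with no filter, 112 in edgeR, 638 in DESeq2 (41.1% higher, against 29.0%, and 40.4% with totals), 282 with the GC correction (61.3%) and 64 to 298 without single libraries, the lowest without 2-week replicate 3 and the highest without 4-week replicate 2.

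List genes called between high and low cells at 2 weeks were 3, none of them lower, and 6 with TMM factors (3 lower), 5 in edgeR (2 lower), 7 in DESeq2 (4 lower), 9 with the GC correction (7 lower) and 2 to 3 without single libraries. At 4 weeks they were 3, and 1 with no filter, 5 with the filter of 50 or with TMM factors, 6 in DESeq2 and 1 to 3 without single libraries. In 2-week low cells against control they were 3, and 5 in DESeq2, 6 with the GC correction and 1 to 3 without single libraries (1 without control replicate 3). At 4 weeks DESeq2 called 2. In low cells over time they were 2, and 1 with no filter, 4 with totals or in DESeq2 and 1 to 2 without single libraries. In high cells over time they were 1 with totals, 3 in DESeq2, 3 with the GC correction and 0 to 1 without single libraries.

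The labels do not say what a replicate number marks, so the numbers were not taken to pair the libraries. The deviations of high and low libraries with the same number correlated at 0.107, 0.068 and 0.025 at 2 weeks and at 0.009, 0.034 and 0.015 at 4 weeks, all above 0. At 4 weeks high replicates 1 and 2 correlated best with the low library of their own number. High replicate 3 correlated best with low replicate 1 (0.017, against 0.015 with low replicate 3). At 2 weeks high replicate 2 correlated best with low replicate 3 (0.077). Pairs with different numbers ranged from -0.124 to 0.077, most of them below 0. Whether libraries with the same number came from the same mice cannot be told from these correlations. With the replicate block, 16 genes passed in 4-week low cells against control, and Pnpla2 lost its call. The difference of high minus low cells at 4 weeks minus that at 2 weeks, added after seeing the data, called 0 genes in limma (smallest adjusted p 0.12, with 987 genes at an unadjusted p under 0.05). Depth limits Apoc1 and Apoc2 most: a library with 0 reads allows up to 6.71 normalized counts.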
